A study of Mus musculus with 4 samples.

Results

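Adrenomedullin and the parts of its receptors were followed through heart development in single-cell RNA sequencing of cardiac endothelial cells. The 5 genes were chosen by name out of 27998 genes counted. Adm encodes the peptide, Calcrl the calcitonin receptor-like receptor, and Ramp1, Ramp2 and Ramp3 the receptor activity-modifying proteins. All cells came from C57Bl6J mouse hearts and were sorted as CD31+/CD45-, which keeps endothelial cells and removes leukocytes. There was 1 library per stage, from 37 pooled animals at E12 (embryonic day 12), 48 at E15, 21 at P2 (postnatal day 2) and 6 adults of 8 weeks. The labels name no allele or treatment, and the groups differed in stage and in how the tissue was handled. E12 and E15 hearts were digested with Collagenase/Dispase alone and P2 and adult hearts with Collagenase II first. Sorted cells were frozen, and after thawing dead cells were removed by a kit from embryonic and by a second sort from postnatal samples, so stage, handling and library cannot be told apart.

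Adrenomedullin is a small secreted peptide, first known as a vasodilator, that endothelial cells both make and sense. Its G protein-coupled receptor, Calcrl, reaches the cell surface only with a RAMP, a single-pass protein that also sets which ligand is bound. Calcrl with Ramp2 or Ramp3 is a receptor for adrenomedullin, and Calcrl with Ramp1 is a receptor for calcitonin gene-related peptide. The receptor signals mainly through the G protein encoded by Gnas and cyclic AMP. In mice, loss of Adm, Calcrl or Ramp2 is lethal before birth with oedema and defects of heart, blood vessels and lymphatic vessels. Adm is also used as a marker of endothelial tip cells, the leading cells of a vessel sprout, and is a known target of hypoxia-inducible factors.

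Values are UMIs (unique molecular identifiers, 1 per captured transcript), summed over the cells of a class and given as CPM, counts-per-million of all UMIs of that class. After barcodes with few UMIs were left out at E12, the libraries held 5732 (E12), 6062 (E15), 5884 (P2) and 4242 cells (adult), with a median of 1241, 1013, 4531.5 and 1510 UMIs per cell. Libraries shared between 25 and 60 cell barcodes a pair, where 33 to 48.4 are met when barcodes are drawn at random. Intervals in parentheses are exact 95% intervals of counting error only, and spread between animals is in none of them. With 1 library per stage no difference was tested. In place of a test, genes with at least 20 UMIs in the compared groups together were taken as higher or lower past 2-fold. This count is given beside the share of all such genes past the same fold. In that share a sum of 0 UMIs was set to 3 counts, so a gene unseen in a small group can count as higher there. Named genes and list members were not counted in that case. Shares for small groups, such as cells with an Adm or Cxcr4 UMI, can therefore be too high for the count beside them. A class sum can mean many cells with little of a transcript or few cells with much.

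Cells were placed in 4 classes by UMIs of marker genes. Endocardial cells had more UMIs of Npr3 and Tmem108 than of Fabp4, Cldn5 and Aplnr, and numbered 1716, 2115, 1082 and 75 from the earliest to the latest library. Coronary cells had at least 2 UMIs of Fabp4, Cldn5 and Aplnr and more than of the endocardial pair, and numbered 113, 1254, 4596 and 4077. Artery cells had at least 3 UMIs of Cxcl12, Glul, Alpl and Nebl (332, 69, 711 and 1875 cells), and large artery cells at least 2 UMIs of Fbln5, Eln, Gkn3 and Clu (1096, 588, 1951 and 759 cells). The artery classes overlap the others. At P2, 679 of the artery cells and 1174 of the large artery cells were also coronary, and 643 of the large artery cells were also endocardial. In the adult, 1859 of the artery cells were coronary. The classes are ranges of a marker score, and 59.3% of E12 coronary cells sat exactly at the threshold, against 13.7% in the E15 library, 1.78% at P2 and 1.47% in adults.

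Endocardial and coronary markers that the rule did not use followed the labels at every stage. Summed endocardial markers reached 720, 840, 1496 and 3980 CPM in endocardial cells against 292, 168, 336 and 200 CPM in coronary cells, from E12 to the adult. Summed coronary markers reached 313, 1364, 4185 and 8816 CPM in coronary cells against 158, 206, 377 and 484 CPM in endocardial cells. E12 coronary cells held UMIs of 4 of the 6 coronary markers. They also held lymphatic markers at 753 CPM, more than their coronary markers, where E12 endocardial cells held 48.9 CPM. E12 coronary values are therefore those of cells that met the marker rule. The same holds for E12 and E15 endocardial cells. Of these, 34.7% at E12 and 25.8% at E15 held no UMI of Pecam1, Cdh5 or Egfl7. Mesenchymal markers summed to 1164 and 1052 CPM in them, against 1402 and 1966 CPM for the endothelial list. The embryonic artery classes did not follow their label. No UMI of the endothelial genes Pecam1, Cdh5 or Egfl7 was found in 77.4% of E12 artery cells, 59.4% of E15 artery cells, 72.9% of E12 large artery cells and 53.9% of E15 large artery cells. Mesenchymal genes such as Col1a1 and Postn summed to 2504 CPM in E12 artery cells, against 270 CPM for the endothelial list. E12 and E15 artery values are therefore given as those of cells that met the marker rule, and arteries are described at P2 and in the adult, where the endothelial list stood between 3551 and 5150 CPM in both classes. Lymphatic markers summed to 1044 CPM in P2 coronary cells and to 2038 CPM in P2 large artery cells, against 219 CPM in coronary cells outside both artery rules. P2 large artery cells also held endocardial markers at 1122 CPM and mesenchymal markers at 1489 CPM, beside 2386 CPM of large artery markers outside the rule, so the class mixes cells of several kinds.

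The 5 genes are protein coding and lie apart in the mouse genome (GENCODE M21 annotation of GRCm38). Adm (ENSMUSG00000030790) is at chr7:110627661-110629820 on the plus strand and Calcrl (ENSMUSG00000059588) at chr2:84330626-84425411 on the minus strand. Ramp1 (ENSMUSG00000034353) is at chr1:91179822-91225196, Ramp2 (ENSMUSG00000001240) at chr11:101246028-101259546 and Ramp3 (ENSMUSG00000041046) at chr11:6658521-6677475, all 3 on the plus strand. The locus of Ramp2 overlaps that of Vps25 on the same strand (chr11:101253707-101259549), so the counts of Ramp2 depend on how reads in the overlap were assigned. Antisense loci overlap Adm (Gm28863) and Ramp3 (Gm11978). The promoter of Adm is shown since hypoxia genes are compared below in cells with an Adm UMI. It is the stretch of 250 bases before the RefSeq start site (GRCm38.p6, chr7:110627407-110627656, plus strand), and capitals mark matches to TATAA on both strands, which overlap and begin 28 and 27 bases before the start.
Adm promoter: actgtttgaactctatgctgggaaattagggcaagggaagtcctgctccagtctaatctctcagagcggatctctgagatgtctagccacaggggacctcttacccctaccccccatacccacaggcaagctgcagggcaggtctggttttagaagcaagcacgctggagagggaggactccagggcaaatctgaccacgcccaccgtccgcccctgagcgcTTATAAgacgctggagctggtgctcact
A promoter was given for 4 of the 5 genes. TATAA was found in 1 of these 4, that of Adm, and in 22.8% of 32851 promoters of the same length. ACGTG, a form of the core of the element that hypoxia-inducible factors bind, was searched on both strands. It was found in 0 of the 4 promoters and in 16.6% of all promoters. The other form, GCGTG, was not searched, and the Adm stretch above holds it on the other strand as cacgc. A missing match says only that the letters searched are not in this window.

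Adm had a higher level in coronary than in endocardial cells at all 4 stages, at E12 on too few UMIs to be counted. In coronary cells it stood at 20.6 CPM at E12 (6.68 to 48, from 5 UMIs), 32.7 CPM at E15 (24.7 to 42.6), 45.3 CPM at P2 (42.6 to 48.1) and 60.9 CPM in the adult (55.4 to 66.9). In endocardial cells the level was 0.404 CPM at E12 from 1 UMI, 1.23 CPM at E15 from 3 UMIs, 5.21 CPM at P2 and 19.2 CPM in the adult from 4 UMIs. The intervals of these classes did not overlap at any stage. In order of level over classes and stages, adult coronary cells came first with an interval above that of P2 coronary cells, and P2 coronary, adult artery (37.8 CPM) and E15 coronary cells followed with intervals that overlapped from one to the next.

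**Figure D1:**
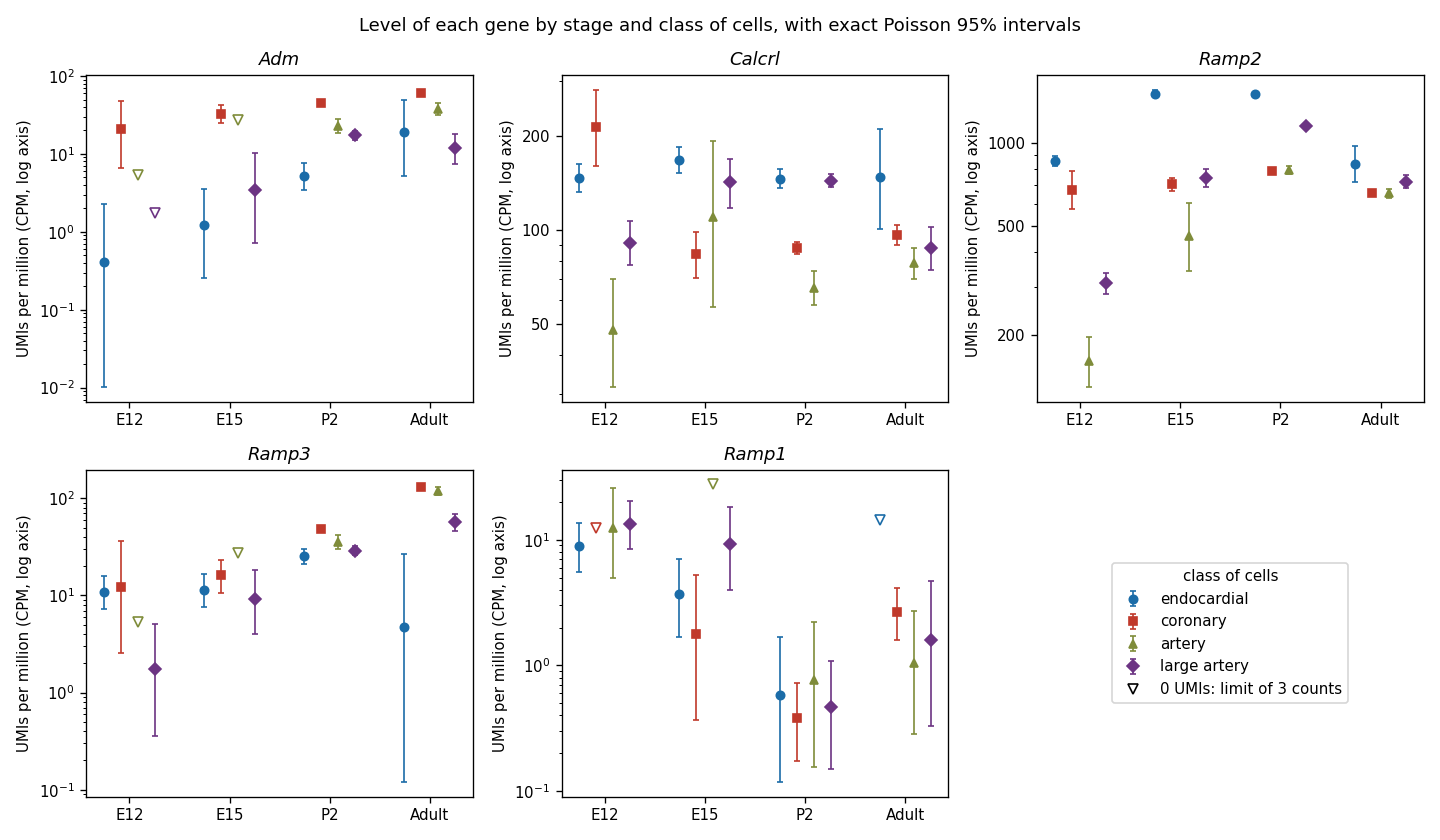
Level of the 5 genes (y axis, CPM on a log axis) by stage (x axis) in endocardial, coronary, artery and large artery cells, with exact Poisson 95% intervals. Open triangles mark classes with 0 UMIs at the limit of 3 counts. Adm in coronary cells goes from 20.6 CPM at E12 to 60.9 CPM in the adult, and Ramp3 from 12.3 to 130 CPM, while Calcrl and Ramp2 are higher in endocardial than in coronary cells at E15 and P2.

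The ratio of Adm in coronary over endocardial cells was 50.9 at E12 (5.7 to 2408, on 6 UMIs together and so not counted), 26.7 at E15 (8.67 to 133), 8.69 at P2 (5.94 to 13.3) and 3.18 in the adult (1.23 to 11.7). Of the 5 genes, Adm alone was past 2-fold higher in coronary cells at E15 and at P2, and Adm and Ramp3 were in the adult. Of all genes, 5.66% were past 2-fold higher at E15, 11% at P2 and 12.2% in adults. The P2 ratio stayed between 6.35 and 9.14 under every alternative in which it could be computed. The adult ratio rests on 75 endocardial cells and went down to a lower bound of 1.09 when cells were thinned to 500 UMIs.

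Most Adm transcripts after birth came from coronary cells. The coronary class held 26.3% of all E12 Adm UMIs, 74.3% at E15, 96.6% at P2 and 98% in adults, where it made up 1.97%, 20.7%, 78.1% and 96.1% of the cells. Within the class Adm was found in a minority of cells. A UMI was seen in 3.83% of E15, 13.3% of P2 and 7.11% of adult coronary cells, and thinned to 500 UMIs per cell these shares were 2.02%, 1.94% and 2.43%. The shares at equal depth were close to each other, and the higher share at P2 stood beside a higher depth per cell. At P2, 212 coronary cells held 2 or more Adm UMIs and the highest held 41, against 4 cells and a highest count of 5 at E15 and 81 cells and a highest count of 8 in the adult. As a background, 40 erythroid barcodes at E12, which should lack the gene, held no Adm UMI after thinning, which allows a share of up to 7.5%. The 156803 E12 barcodes taken as empty held 4.64 UMIs each on average, against a median of 1241 in E12 cells. Their CPM values give the make-up of free RNA and not its amount in a cell. In them Adm was at 1.37 CPM from 1 UMI (0.0348 to 7.65). This interval overlapped those of E12 coronary cells (20.6 CPM, 6.68 to 48) and E12 endocardial cells (0.404 CPM, 0.0102 to 2.25).

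Calcrl, the receptor itself, was seen in every class at every stage. Endocardial cells held 147 CPM at E12, 168 CPM at E15, 146 CPM at P2 and 148 CPM in the adult, and the intervals of all neighbouring stages overlapped. Coronary cells held 214 CPM at E12 (160 to 281), 83.9 CPM at E15 (70.6 to 99), 87.6 CPM at P2 (83.9 to 91.5) and 96.7 CPM in the adult (89.6 to 104). The coronary level was thus highest in the E12 library and about level in the other 3. The E12 class also held lymphatic markers at 753 CPM, and their part in its Calcrl level was not tested. Coronary over endocardial cells gave a ratio of 1.46 at E12 (1.07 to 1.95), then 0.501 at E15 (0.411 to 0.608), 0.6 at P2 (0.552 to 0.653) and 0.651 in adults (0.454 to 0.966). At E12 the direction depended on the class rule, with 0.983 when the thresholds were 1 UMI higher. In the E12 barcodes taken as empty, Calcrl was at 177 CPM, between both classes, and the part of free RNA in the cell levels was not tested.

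Ramp2, which with Calcrl makes the main adrenomedullin receptor, had the most UMIs of the 5 genes in every class and was higher in endocardial cells. UMIs of 3′ ends were compared here, which do not scale with transcript length. These held 857 CPM at E12 (821 to 894), 1507 CPM at E15 (1459 to 1557), 1496 CPM at P2 (1463 to 1530) and 838 CPM in the adult (719 to 972). Coronary cells varied less across stages and held 675, 706, 789 and 657 CPM. The ratio of coronary over endocardial cells was 0.788 at E12 (0.668 to 0.924) and then 0.468 at E15 (0.438 to 0.5), 0.527 at P2 (0.514 to 0.542) and 0.784 in adults (0.674 to 0.917). Only the E15 ratio was past 2-fold lower, as were 12.4% of all genes in that comparison, and it lay between 0.407 and 0.475 under the alternatives. The P2 ratio lay between 0.438 and 0.541 under the alternatives, on both sides of 2-fold. E12 barcodes taken as empty held Ramp2 at 714 CPM, close to the 675 CPM of coronary cells, and 5% of E12 erythroid barcodes held a Ramp2 UMI. At equal depth Ramp2 was seen in 51.3% of endocardial and 27.9% of coronary cells at E15, in 52.2% and 32.4% at P2, and in 28% and 28.9% in the adult.

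**Figure D2:**
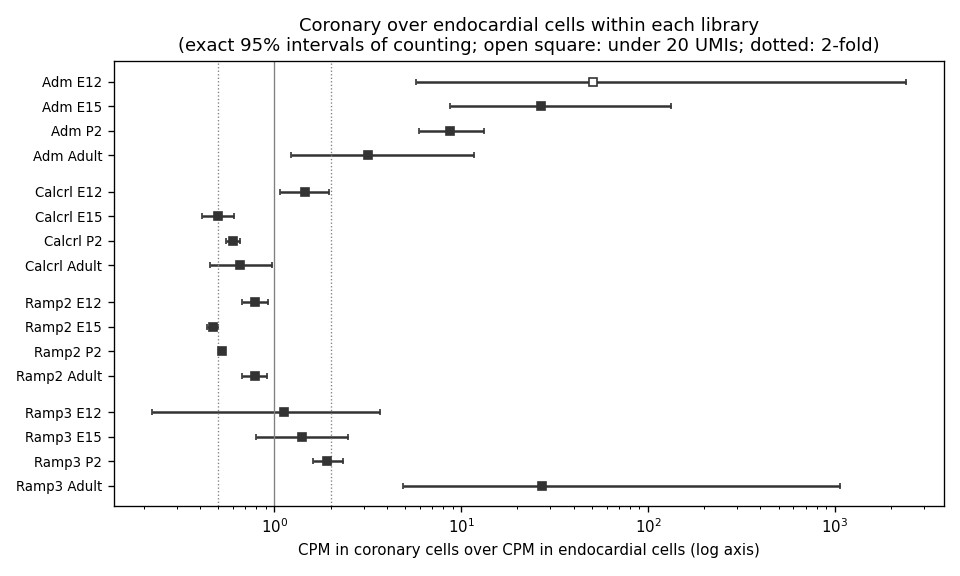
Ratio of CPM in coronary over endocardial cells (x axis, log) for Adm, Calcrl, Ramp2 and Ramp3 (y axis) by stage, with exact 95% intervals of counting and dotted lines at 2-fold. The open square marks a ratio on under 20 UMIs. The Adm ratio lies above 2-fold at every stage, at E12 on under 20 UMIs and in the adult with an interval that starts at 1.23. Ramp2 is below 1 at every stage, and Calcrl is at 1.46 at E12 and between 0.501 and 0.651 after it.

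Ramp3, the other RAMP of the adrenomedullin receptor, was low in embryonic cells and higher in coronary cells after birth. Coronary cells held 12.3 CPM at E12 (2.55 to 36.1, from 3 UMIs), 16.1 CPM at E15 (10.6 to 23.4), 48.6 CPM at P2 (45.8 to 51.4) and 130 CPM in the adult (122 to 139). Endocardial cells held 10.9, 11.4 and 25.3 CPM at E12, E15 and P2, and 1 UMI in the adult (4.79 CPM). The classes overlapped in their intervals at E12 and E15 and did not at P2 and in the adult. Coronary over endocardial cells gave 1.13 at E12 (0.22 to 3.68), then 1.4 at E15 (0.796 to 2.47), 1.92 at P2 (1.6 to 2.32) and 27.1 in adults (4.86 to 1073). E12 barcodes taken as empty held Ramp3 at 12.4 CPM, as much as either class at that stage. The P2 ratio lay between 1.87 and 3.96 under the alternatives. It was 3.26 with cells of more than 1 class left out and 3.96 without the barcodes that carried valve or lymphatic markers, where the endocardial level was 12.9 CPM in place of 25.3 CPM. The share of coronary cells with a Ramp3 UMI, at equal depth, was 1.09% at E15, 2.55% at P2 and 6.82% in adults.

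Ramp1, the RAMP of the receptor for calcitonin gene-related peptide, was near the limit of counting. It had 78 UMIs in the E12 library, 32 in that of E15, 13 in that of P2 and 21 in that of adults. Its highest levels were 13.4 CPM in E12 large artery cells, 12.4 CPM in E12 artery cells, 9.3 CPM in E15 large artery cells and 8.89 CPM in E12 endocardial cells, and their intervals overlapped. Coronary cells held 0 UMIs at E12, which allows up to 12.3 CPM, and 1.79, 0.381 and 2.64 CPM at E15, P2 and in the adult. E12 barcodes taken as empty held Ramp1 at 13.7 CPM, as much as the highest class.

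The mix of RAMP transcripts was mostly Ramp2 in every class and moved toward Ramp3 in the postnatal vessels. Ramp2 made up between 83.2% and 100% of all RAMP UMIs. Ramp3 made up 1.8% of the RAMP UMIs of coronary cells at E12, 2.22% at E15, 5.79% at P2 (5.47 to 6.13) and 16.4% in the adult (15.5 to 17.4). In endocardial cells the same share was 1.25%, 0.752%, 1.66% and 0.568%, and its stages showed no such order. Artery cells held a Ramp3 share of 4.29% at P2 and 15.5% in the adult, and large artery cells 2.45% and 7.27%. These shares compare transcripts by UMIs of their 3′ ends and do not give the amount of protein. Beside Calcrl, Ramp2 was in excess in UMIs, from 3.15 Ramp2 UMIs per Calcrl UMI in E12 coronary cells to 12.2 in P2 artery cells.

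**Figure D3:**
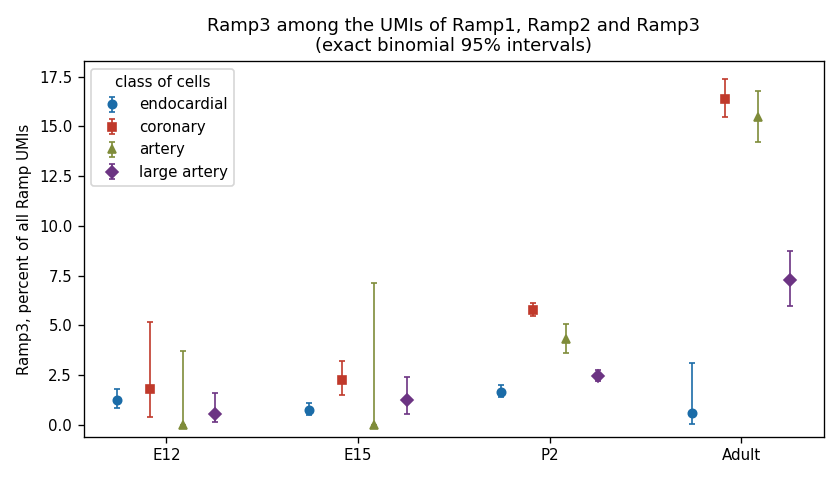
Ramp3 as a percentage of all Ramp1, Ramp2 and Ramp3 UMIs (y axis) by stage (x axis) and class of cells, with exact binomial 95% intervals. Coronary cells go from 1.8% at E12 to 16.4% in the adult, and endocardial cells stay between 0.568% and 1.66%.

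In coronary cells, stage steps past 2-fold were seen for Calcrl, Ramp3 and Ramp1. From E12 to E15, Calcrl was lower with a ratio of 0.392 (0.283 to 0.55), and Adm at 1.59 (0.642 to 5.09) and Ramp2 at 1.05 were within 2-fold. Of all genes, 5.21% were past 2-fold lower in this step and 11.7% higher. From E15 to P2, Ramp3 was higher with a ratio of 3.02 (2.07 to 4.6), beside 17.1% of all genes past 2-fold higher and 5.82% lower, and Adm was at 1.38 (1.05 to 1.85). From P2 to the adult, Ramp3 was higher again at 2.68 (2.45 to 2.92) and Ramp1 at 6.94 (2.99 to 17.4, from 9 and 19 UMIs), beside 11.4% of all genes. Adm was at 1.35 (1.2 to 1.5) in this step, Calcrl at 1.1 and Ramp2 at 0.833. The Ramp3 step from P2 to the adult lay between 2.44 and 2.8 under all alternatives. Each of the 3 coronary steps of Adm was above 1 and within 2-fold, also under all alternatives in which it could be computed.

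In endocardial cells, from E12 to E15, Ramp2 was at a ratio of 1.76 (1.67 to 1.86) and Calcrl at 1.14 (0.871 to 1.19 under the alternatives). Ramp1 was lower at 0.414, beside 4.79% of all genes, and none of the 5 was past 2-fold higher, beside 3.85%. From E15 to P2, Adm was higher at 4.25 (1.31 to 21.9, from 3 and 27 UMIs) and Ramp3 at 2.21 (1.46 to 3.45), beside 12.9% of all genes. The Ramp3 ratio lay between 1.54 and 2.38 under the alternatives, on both sides of 2-fold. Of the 131 Ramp3 UMIs at P2, 21 came from a single cell, and the level was 21.3 CPM without it. The P2 level was also lower, as given above, without barcodes that carried valve or lymphatic markers. From P2 to the adult, Adm was at 3.68 (0.935 to 10.6) and Ramp3 at 0.189 (0.00476 to 1.07), beside 15.4% of all genes past 2-fold higher and 11.5% lower. Both intervals reached past 1, since the adult class held 4 Adm UMIs and 1 Ramp3 UMI in its 75 cells. Ramp2 was at 0.56 (0.48 to 0.651) in the same step.

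In artery cells, from P2 to the adult, Ramp3 was higher with a ratio of 3.36 (2.77 to 4.08) and Adm was at 1.66 (1.26 to 2.18), with 10.1% of all genes past 2-fold higher and 10.2% lower. In large artery cells Ramp3 was at 1.96 (1.56 to 2.45), while Adm at 0.682 (0.417 to 1.06), Calcrl at 0.61 (0.516 to 0.717) and Ramp2 at 0.628 (0.593 to 0.664) were below 1, none past 2-fold. Of all genes, 10.8% were past 2-fold higher and 13% lower in that step.

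Cells of the artery classes held less Adm than other coronary cells after birth. The reference here is coronary cells outside both artery rules (3023 at P2 and 2008 in the adult), in which Adm stood at 57.2 and 95.2 CPM. Artery cells held 22.8 CPM at P2 and 37.8 CPM in the adult, which gave ratios of 0.399 (0.317 to 0.496) and 0.397 (0.323 to 0.487). Large artery cells held 17.3 and 11.8 CPM, with ratios of 0.302 (0.256 to 0.354) and 0.124 (0.0762 to 0.191). Adm was past 2-fold lower in all 4 comparisons. Of all genes, 3.7% were in P2 artery cells, 2.41% in adult artery cells, 5.24% in P2 and 5.3% in adult large artery cells. None of the 5 genes was past 2-fold higher in artery cells, where 5.05% of all genes were at P2 and 3.83% in the adult, or in adult large artery cells, where 9.67% were. The artery ratios ranged from 0.313 to 0.769 at P2 and from 0.141 to 0.542 in the adult under the alternatives, so the direction stayed and the 2-fold did not. Of P2 large artery cells, those that were also coronary held 24.5 CPM of Adm and those that were not held 4.39 CPM.

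In P2 large artery cells Calcrl was at 144 CPM against 69.1 CPM in other coronary cells, a ratio of 2.08 (1.92 to 2.25; 1.98 to 3.23 under the alternatives), and 13.8% of all genes were past 2-fold higher. Ramp2 was at 1149 against 699 CPM there, a ratio of 1.64 (1.6 to 1.69). These cells held more of other cell types' markers than the reference, with lymphatic markers at 2038 against 219 CPM and endocardial markers at 1122 against 150 CPM, and P2 endocardial cells held Calcrl at 146 and Ramp2 at 1496 CPM. Without valve and lymphatic barcodes the ratios were 2.14 for Calcrl and 1.71 for Ramp2, and the part of endocardial cells in them was not tested apart. Both remained above the reference in the P2 large artery cells that were also coronary, at 137 CPM for Calcrl and 1000 CPM for Ramp2. In adult large artery cells Calcrl was at 0.791 (0.652 to 0.956) and Ramp2 at 1.12 (1.04 to 1.2). Ramp3 was lower in large artery cells at both stages, at 0.476 (0.417 to 0.543) and 0.382 (0.306 to 0.473). In artery cells Ramp3 stood at 0.589 (0.49 to 0.704; 0.446 to 0.628 under the alternatives) at P2 and 0.809 (0.709 to 0.924) in adults, Calcrl at 0.947 and 0.708, and Ramp2 at 1.14 and 1.02.

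Coronary cells with a UMI of Apln or Kcne3, which the study uses as tip cell genes beside Adm, held more Adm than the other coronary cells. The study holds that Apln, Adm and Kcne3 most likely go with subepicardial sprouting. Adm was at 57.7 against 26.6 CPM at E15 (193 and 1061 cells), 78.6 against 31.2 CPM at P2 (1107 and 3489 cells) and 245 against 49.5 CPM in the adult (155 and 3922 cells). The ratios were 2.17 at E15 (1.17 to 3.88), 2.52 at P2 (2.23 to 2.85) and 4.94 in the adult (3.92 to 6.18). Among all genes, 1.93%, 0.728% and 6.5% were past 2-fold higher in the same splits. Cells with the UMI were also deeper, with a median of 1500 against 1113 UMIs at E15, 5606 against 4299 at P2 and 2409 against 1465 in the adult, and the part of depth in the ratios was not tested beyond thinning. Over the alternatives, thinning included, the E15 ratio lay between 1.67 and 2.79, that of P2 between 1.15 and 2.54 and the adult one between 3.26 and 5. At E12, 32 cells with and 81 without the UMI held 2 and 3 Adm UMIs. Calcrl was lower in the 32 cells, at 78.6 against 292 CPM (0.269, 0.102 to 0.601), beside 5.87% of all genes.

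The receptor genes were not higher with Apln or Kcne3. In cells with the UMI, Ramp2 was at ratios of 0.793, 0.663 and 0.875 at E15, P2 and in the adult, Calcrl at 0.563, 0.787 and 0.852, and Ramp3 at 0.328 (0.0377 to 1.32), 0.982 and 0.7. The Ramp3 ratio at E15 was past 2-fold lower, beside 7.63% of all genes, and its interval included 1. None of the 5 was past 2-fold lower at P2 and in the adult, where 8.12% and 8.77% of all genes were.

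The study takes Cxcr4 as a marker of prearterial cells, which it identifies as tip cells that sprout into the myocardium. Under the main settings a Cxcr4 UMI divided Adm by a smaller ratio at each of the same stages. Adm was at 52.4 against 31.6 CPM at E15, 70.1 against 44.6 CPM at P2 and 74.1 against 60.7 CPM in the adult. The ratios were 1.66 (0.517 to 4.14), 1.57 (1.15 to 2.1) and 1.22 (0.605 to 2.21), none past 2-fold, where 11.4%, 8.73% and 20% of all genes were higher, and the intervals at E15 and in the adult included 1. Over the alternatives the ratios lay between 1.38 and 2.27, 1.56 and 2.21, and 1.15 and 2.65, so each reached past 2-fold. These ranges overlapped those of the Apln or Kcne3 split at E15 and P2 and lay below them in the adult. In 27 P2 cells with a Cxcr4 UMI and a UMI of Apln or Kcne3, Adm was at 160 CPM (110 to 223), and in P2 cells with neither it was at 31.2 CPM. Of the 48 Adm UMIs in the 120 P2 cells with a Cxcr4 UMI, 34 were in these 27 cells. Ramp3 was lower in adult cells with a Cxcr4 UMI, at a ratio of 0.358 (0.144 to 0.741), where 7.12% of all genes were past 2-fold lower, and at 0.534 at P2. None of the 5 was past 2-fold lower at E15 and P2, beside 9.56% and 5.68% of all genes.

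**Figure D4:**
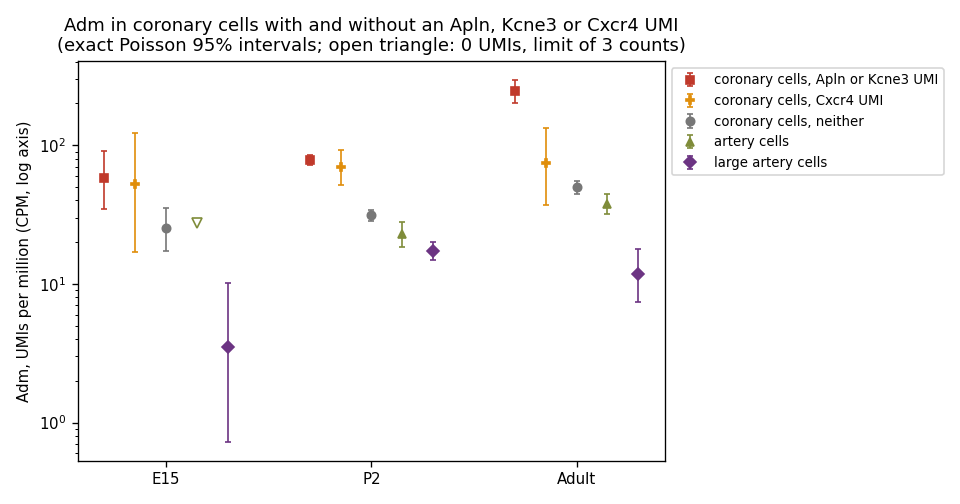
Adm level (y axis, CPM) on a log axis in coronary cells with an Apln or Kcne3 UMI, with a Cxcr4 UMI or with neither, and in the artery classes, at E15, P2 and adult (x axis), with exact Poisson 95% intervals. The open triangle marks E15 artery cells with 0 UMIs at the limit of 3 counts. In the 3 groups of adult coronary cells the level runs from 49.6 CPM with neither to 245 CPM with an Apln or Kcne3 UMI. Adult artery cells are at 37.8 CPM and adult large artery cells at 11.8 CPM. At P2 and in the adult the artery classes lie below the coronary cells with neither and those with a UMI of Apln or Kcne3.

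Read from the ligand, coronary cells with an Adm UMI (48 at E15, 610 at P2, 290 in the adult) were set beside coronary cells without. The tip cell list holds genes of both kinds of tip cell in the study, such as Apln and Kcne3 beside Cxcr4 and Igfbp3. Its genes past 2-fold higher numbered 4 of 12 at E15, 2 of 14 at P2 and 5 of 14 in the adult, and 0 were lower. The list median on the log2 scale was 0.59, 0.33 and 0.54, where the median of all genes was 0.07, -0.06 and -0.08. Of all genes, 14.2% were past 2-fold higher at E15, 0.818% at P2 and 3.18% in adults. Apln, the ligand of the apelin receptor, was at 174 against 64.3 CPM at P2 (2.71, 2.46 to 2.97) and at 136 against 19.4 CPM in the adult (7.03, 5.35 to 9.22). Kcne3, a potassium channel subunit, was at 3 at E15 (1.8 to 4.77), 3.68 at P2 (2.98 to 4.52) and 3.24 in the adult (1.15 to 8.04). Pgf, a ligand of VEGF receptor 1, was at 93.9 against 16 CPM in adult cells (5.89, 4.28 to 8.06). Plaur, the urokinase receptor, was at 2.78 at E15 and 2.35 in the adult, and Igfbp3, which binds insulin-like growth factors, at 2.18 at E15.

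Hypoxia and glycolysis genes were read in the same cells. Of this list, 7 of 18 genes were past 2-fold higher and 0 lower at E15, where 14.2% of all genes were higher, 0 and 0 of 20 at P2, and 0 higher and 3 lower of 18 in the adult, where 9.31% of all genes were lower. The list medians on the log2 scale were 0.96, 0.25 and -0.30, where all genes had 0.07, -0.06 and -0.08. At E15 the glycolytic gene Pgk1 was at 98.7 against 26.9 CPM (3.67, 1.49 to 7.9), the glucose transporter Slc2a1 at 2.82 (0.98 to 6.67), and Eno1, which encodes enolase, at 642 against 306 CPM (2.09, 1.54 to 2.79). Egln1, an oxygen sensor that hydroxylates hypoxia-inducible factors, was at 2.43 (1.01 to 5.08) and Vegfa at 2.37 (0.458 to 7.76). Most of these rest on 3 to 8 UMIs in the 48 cells, and after thinning 3 genes of the list were past 2-fold in either direction at E15 and 3 at P2. In the adult Slc2a1 was at 0.3 (0.0606 to 0.905), Vegfa at 0.351 (0.00856 to 2.15) and Bnip3, a mitophagy receptor, at 0.494 (0.322 to 0.728). Cells with an Adm UMI were deeper at each stage, with a median of 1380 against 1160 UMIs at E15, 5740.5 against 4421 at P2 and 2224.5 against 1452 in the adult, and the part of this depth in the list counts was not tested beyond thinning. Whether the stages differ in the hypoxia list was not tested.

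**Figure D5:**
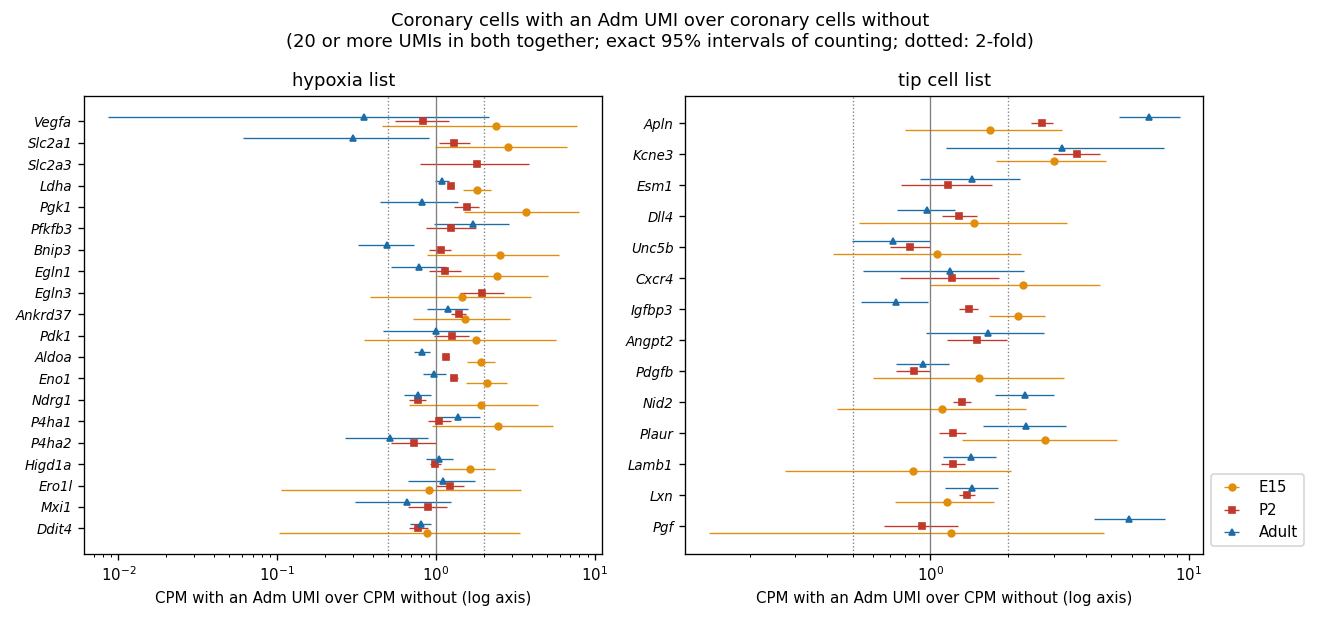
Ratio of CPM in coronary cells with an Adm UMI over coronary cells without (log axis) for each hypoxia gene and each tip cell gene with at least 20 UMIs, at E15, P2 and in the adult, with exact 95% intervals of counting and dotted lines at 2-fold. At E15, 7 hypoxia genes lie above 2-fold, while P2 holds 0 and the adult has 3 below it. Apln at P2 and in the adult and Kcne3 at all 3 stages lie above 2-fold.

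The receptor genes stayed within 2-fold in cells with an Adm UMI. Calcrl was at ratios of 0.726, 0.639 and 0.652 at E15, P2 and in the adult, Ramp2 at 0.814, 0.668 and 0.869, and Ramp3 at 0.759, 0.673 and 0.756. These 9 ratios were below 1 and none reached 2-fold, where 8.32%, 5.01% and 9.31% of all genes were past 2-fold lower. At E15 the intervals of Calcrl (0.232 to 1.74), Ramp2 (0.595 to 1.09) and Ramp3 (0.0185 to 4.62) included 1, and those at P2 and in the adult did not. Under the alternatives the E15 ratio of Calcrl reached 1.87, that of Ramp3 at P2 reached 1.33 and the adult one of Ramp2 reached 1.02. In the 5 such cells at E12, Calcrl was at 1.13 (0.296 to 3.09) and Ramp2 at 1.36 (0.745 to 2.32).

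Calcrl and its partners were set beside each other in single cells. Among coronary cells with a Calcrl UMI, a Ramp2 UMI was found in 81.8%, 65.8%, 94.9% and 67.2% from E12 to the adult, against 62.5%, 51.7%, 90.5% and 58.9% of coronary cells without. As CPM, Ramp2 in coronary cells with a Calcrl UMI was at ratios of 1.7 (1.23 to 2.35), 1.21, 1.18 (1.14 to 1.21) and 1.09. In endocardial cells Ramp2 was found in 69%, 77.2%, 96.9% and 72.7% with a Calcrl UMI and 60.7%, 73.9%, 97.9% and 75.5% without. Deeper cells show both genes more readily, and these shares were not corrected for depth. Ramp3 was found in 20.3% of P2 and 24.6% of adult coronary cells with a Calcrl UMI, against 17.4% and 17.6% of those without. In P2 endocardial cells with a Calcrl UMI, Ramp3 was higher with a ratio of 3.06 (2.07 to 4.61), beside 1.41% of all genes in that split. A single cell with 21 Ramp3 UMIs took part in this, and without it the ratio was 2.39 (1.59 to 3.65). The split was not repeated without valve and lymphatic barcodes, which lowered the P2 endocardial Ramp3 level as given above. In E12 endocardial cells, Ramp3 was found in 2.9% with a Calcrl UMI and 1.14% without, and Ramp1 in 0.323% and 1.35%.

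Other genes of the pathway were read from a list of 34 ligands, receptors, binding proteins and signalling genes. In coronary over endocardial cells, 2 were past 2-fold higher and 6 lower of 24 with enough UMIs at E12, 4 and 5 of 24 at E15, 3 and 5 of 26 at P2, and 5 and 7 of 25 in the adult. For all genes the shares from E12 to the adult were 5.37% higher and 17.4% lower, 5.66% and 12.4%, 11% and 10.4%, and 12.2% and 20.1%. The list medians on the log2 scale were -0.15, -0.05, -0.01 and -0.19, where all genes had -0.11, -0.13, -0.08 and -0.18. The list as a whole therefore lay where all genes did. The other ligands of this receptor family were nearly unseen. Adm2, Iapp and the calcitonin receptor gene Calcr had 0 UMIs in endocardial and coronary cells at every stage, Calcb had 1 UMI, in E12 endocardial cells, and Calca had at most 4 UMIs in either class.

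The receptor genes Gpr182 and Ackr3 stood on the endocardial side, and uptake of the peptide was not measured. Gpr182, an atypical receptor of the endothelium, was at ratios of coronary over endocardial cells of 0.28 at E12, then 0.237 at E15, 0.335 at P2 and 0.0886 in adults. Ackr3, a scavenging receptor for Cxcl12 that also takes up adrenomedullin, was at 0.417, 0.237, 0.278 and 0.506. Pam, the enzyme that amidates the peptide to its active form, was at 1.81, 1.09, 0.714 and 0.262. In large artery cells over other coronary cells, Pam was at 2.39 (2.27 to 2.52) at P2 and 3.51 (3.13 to 3.95) among adult cells. The large artery class holds endocardial cells, 643 at P2 and 46 in the adult. Endocardial cells held Pam at 321 CPM at P2 and 709 CPM in the adult, against 229 and 186 CPM in coronary cells. The part of endocardial cells in the Pam ratios was not tested.

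Genes of cyclic AMP signalling divided between the classes. Pde2a, a phosphodiesterase, was higher in coronary cells at 6.59, 4.18, 3.31 and 29.4 from E12 to the adult, the last from 1 endocardial UMI. Pde3a, another phosphodiesterase, was lower in coronary cells at 0.424, 0.231, 0.123 and 0.0695. Rapgef4, which encodes the cyclic AMP sensor Epac2, was at 4.25 (2.15 to 8.99) at E15 and 8.9 (3.75 to 27.7) at P2. Gnas was at 2.42 (2.23 to 2.62) at E12, 2.53 (2.42 to 2.64) at E15, and 1.66 at P2 and in the adult. From P2 to the adult, coronary cells held less Gnas (2222 and 541 CPM, 0.243) and less Prkaca, the catalytic subunit of protein kinase A (81.1 and 14.2 CPM, 0.175). Endocardial cells also held less of both, with Gnas at 1339 and 326 CPM and Prkaca at 95.3 and 28.7 CPM, the last from 6 UMIs. In the same step coronary cells held more Rapgef4 (8.59 and 66.1 CPM, 7.7), Rapgef3 (46 and 118 CPM, 2.55) and the adenylyl cyclase Adcy4 (51.4 and 109 CPM, 2.11). In that step 4 genes of the list were higher and 5 lower of 26, where 11.4% of all genes were past 2-fold higher and 13.4% lower. The lower ones of the list also included Pde4d, another phosphodiesterase (0.151), and Prkar2b, a regulatory subunit of protein kinase A (0.159).

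The pattern of each gene over the 16 values of class and stage was set beside all 12008 genes with at least 100 UMIs, by Pearson correlation of log2(CPM + 10). The points share libraries, depth and cells, and the embryonic artery classes are among them, so the values are a description. Adm was most like Il16 (r = 0.96), Arhgap18 (0.93), Prdm1, Nrp2 and Ift122 (0.92 each). Ramp3 was most like Rapgef1, Plin2, Lurap1l and Fbxw2 (0.96 each) and Mllt4 (0.95). Ramp2 was most like Klhl4 (0.92), Fabp5, Lyl1 and Cd59a (0.91 each) and Pold4 (0.90). Calcrl was most like Tmem94 and Lyrm9 (0.84 each), then Tbkbp1, Rnf165 and Nr2f2 (0.82 each). Ramp1 was most like Itga4 and Tbx18 (0.96 each), Car3 (0.95), Crabp1 (0.94) and Alg11 (0.93). These orders depended on the embryonic artery classes. On the 12 points without them, the named gene furthest down the order ranked 25 for Adm, 36 for Ramp3, 201 for Ramp2, 68 for Calcrl and 74 for Ramp1. Between the genes themselves, Adm and Ramp3 had r = 0.77, Calcrl and Ramp2 r = 0.63, and Adm and Calcrl r = -0.15.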

How the data were processed

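CD31+/CD45- cells were sequenced as 10x Genomics 3′ libraries, and per the submitters' notes reads were mapped and counted with Cell Ranger 2.2 on mm10. The deposited values are raw counts of UMIs per gene and barcode, not normalized by the authors. The E12 matrix held all barcodes, and those with at least 452 UMIs were taken as cells. The other matrices were used as deposited. No doublet caller was run, and the quality limits of the study were an alternative.

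UMIs were summed per class and stage and divided by the class total. Poisson, binomial and conditional binomial 95% intervals were exact, and a sum of 0 was given the limit of 3 counts. These cover counting error only. Ratios past 2-fold were counted for genes with at least 20 UMIs in both groups together, without a test. In shares and medians of all genes the limit of 3 counts stood in for a sum of 0. A named gene or list member was not counted where that limit lay on the other side of 1. Shares were also computed on cells thinned to 500 UMIs. PCR copies were removed by the UMIs. The counting was tested on simulated counts of 1 comparison, P2 coronary over endocardial cells, with 200 genes changed 4-fold. The simulated counts varied by counting error only, and small classes and single cells with many UMIs were not part of them. Alternatives were the quality limits of the study, only barcodes with a Pecam1, Cdh5 or Egfl7 UMI, classes without overlap, barcodes with UMIs of both endocardial and coronary markers left out, thresholds 1 UMI higher, thinning before classes were formed, totals without haemoglobin, mitochondrial and ribosomal protein genes, the mean of the CPM per cell, and E12 barcodes of 1000 or more UMIs. Chosen after seeing the data were artery cells that are also coronary, valve and lymphatic barcodes left out, and the cell with most UMIs left out.

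The 5 genes and all lists were chosen with earlier results of these data known. Genes named beside the 5 are list members with at least 20 UMIs and the largest ratios in a comparison, and the 5 genes most like each member. Calca, Calcb, Adm2, Iapp and Calcr, Pam where it was within 2-fold, and Vps25, Gm28863 and Gm11978 were named outside that rule. Promoters were from RefSeq (GRCm38.p6) and gene positions from GENCODE M21. Python 3.11.15, numpy 2.4.6, scipy 1.17.1 and matplotlib 3.10.9 were used. A gene of the pathway list is not reported here by name.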

Additional observations from a re-analysis of the deposited data

Results flagged for a closer look

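No result was compared with the spread between replicates, since each stage had 1 library, and no difference between stages or classes given here was tested. The ratios below are those whose intervals lay on opposite sides of 1 under the same contrast at another stage or in another class.

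Calcrl in coronary over endocardial cells was above 1 at E12 (1.46) and below 1 at E15 (0.501), with the E12 ratio at 0.983 when the thresholds were 1 UMI higher. Large artery over other coronary cells gave a Calcrl ratio of 2.08 at P2 and 0.517 at E12, where 72.9% of the large artery cells held no UMI of Pecam1, Cdh5 or Egfl7. From E12 to E15, Calcrl was at 2.3 in artery cells and 0.392 in coronary cells. From P2 to the adult it was at 1.2 in artery cells and 0.61 in large artery cells. Ramp2 in artery over other coronary cells was at 1.14 at P2 and 0.259 at E12, where 77.4% of the artery cells held no UMI of the 3 endothelial genes. Ramp2 in large artery over other coronary cells was at 1.64 at P2 and 0.495 at E12.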

How the results depend on the processing

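No paired analysis was possible because each stage had 1 library and no result came from a test. Under the quality limits of the study, all 141 ratios and 77 of 80 levels of the 5 genes moved by less than their counting interval. Thinning to 500 UMIs kept 41 of 95 ratios and 28 of 80 levels within it. Ramp2 in large artery over other coronary cells at E12 turned from 0.495 to 1.06 with only barcodes that held a Pecam1, Cdh5 or Egfl7 UMI and to 1.61 with artery cells that were also coronary. Ramp3 in endocardial cells, adult over P2, was at 0.189 on 1 adult UMI and at 2.83 after thinning, on 1 adult and 4 P2 UMIs in classes formed anew on the thinned counts, so no direction can be read from it.

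Of the counts of the 5 genes past 2-fold in either direction, that of coronary over endocardial cells at P2 was 1, and 3 with classes without overlap, 4 without barcodes holding both endocardial and coronary markers, 4 after thinning, 2 by the mean of the CPM per cell and 2 without valve and lymphatic barcodes. In the adult it was 2, and 1 after thinning. For artery over other coronary cells at P2 it was 1, and 0 with classes without overlap, 2 without barcodes holding both markers, 2 without valve and lymphatic barcodes and 2 with artery cells that were also coronary. In the adult it was 1, and 0 with classes without overlap.

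For endocardial cells from E12 to E15 the count was 1, and 0 with only barcodes with an endothelial UMI, 0 with thresholds 1 UMI higher and 0 after thinning. From E15 to P2 it was 2, and 0 with classes without overlap, 1 without barcodes holding both markers, 0 after thinning and 1 with haemoglobin, mitochondrial and ribosomal protein genes left out of the total. From P2 to the adult it was 2, and 1 within the quality limits, 0 with classes without overlap, 0 without barcodes holding both markers and 1 after thinning. For coronary cells from P2 to the adult it was 2, and 1 with classes without overlap and 1 after thinning.

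For cells with an Apln or Kcne3 UMI at E15 the count was 2, and 1 within the quality limits, 1 with classes without overlap, 1 with higher thresholds and 0 after thinning. At P2 it was 1, and 0 with classes without overlap and 0 after thinning. For cells with a Cxcr4 UMI at E15 it was 0, and 1 by the mean of the CPM per cell. At P2 it was 0, and 2 with classes without overlap, 1 without barcodes holding both markers, 1 after thinning and 1 by the mean per cell. In the adult it was 1, and 2 with classes without overlap. Hypoxia genes past 2-fold in cells with an Adm UMI were 7 at E15, and 3 after thinning. At P2 they were 0, and 1 with an endothelial UMI only, 1 with classes without overlap, 1 without barcodes holding both markers and 3 after thinning. The cause of these moves was not tested. Depth limits the E12 coronary class, the adult endocardial class and every value of Ramp1.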

Other observations

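Cells of other kinds in the sort also carried the 5 genes. Groups were formed here by UMIs of fixed markers and may hold doublets and free RNA. In the embryo, the highest Ramp1 values were in mural cells, the contractile cells around vessels. They were 18.9 CPM at E12 (8.62 to 35.8, 257 barcodes) and 35.3 CPM at E15 (9.61 to 90.4, 59 barcodes, 4 UMIs). Both intervals overlapped those of large artery cells. The E12 interval also overlapped those of mesenchymal barcodes, endocardial cells and empty barcodes (13.7 CPM, 6.59 to 25.3), so no order is read from it. Mesenchymal barcodes held Ramp1 at 12.8 CPM at E12 (770 barcodes) and 13.6 CPM at E15 (501 barcodes), where E15 endocardial cells held 3.68 CPM. Calcrl was at 29.3 CPM in E12 mural and 37.7 CPM in E12 mesenchymal barcodes, and Ramp2 at 117 and 243 CPM. Both were below their endocardial levels of 147 and 857 CPM.

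At P2, 207 lymphatic barcodes held Adm at 53.3 CPM (41.6 to 67.4), Calcrl at 79.3 CPM, Ramp2 at 809 CPM and Ramp3 at 10.7 CPM (5.83 to 17.9). The Ramp3 level was below the 48.6 CPM of P2 coronary cells, and the Adm interval overlapped theirs. Of the 70 Adm UMIs in these lymphatic barcodes, 23 came from a single one, and the level without it was not computed. In 376 P2 barcodes with valve markers, Adm was at 57.7 CPM (48.3 to 68.5) and Ramp3 at 68.7 CPM (58.3 to 80.3), against 5.21 and 25.3 CPM in P2 endocardial cells. Of the 132 Adm UMIs of these barcodes 41 came from a single one, and without it the level was 39.9 CPM. In the whole P2 library 38 Adm UMIs lay outside coronary cells, so most of the 132 were in barcodes that were also coronary. All P2 coronary cells held Adm at 45.3 CPM. Ramp3 without its highest barcode was at 59.7 CPM. Dividing coronary cells at P2 (749) held Adm at 43.1 CPM, Ramp3 at 43.8 CPM and Calcrl at 73.5 CPM, and Ramp2 at 583 CPM (563 to 603), below the 789 CPM of all P2 coronary cells. These differences were not tested.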
